A study of Mus musculus with 24 samples.

Results

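The transcripts described here are 8 mouse long noncoding RNAs. Neat1 and Malat1 are retained in the nucleus, and Gas5, Snhg1, Snhg3, Snhg5, Snhg8 and Snhg12 are host genes of small nucleolar RNAs (snoRNAs). They were chosen by symbol, with earlier results of these data known, out of 55414 genes in the count table, and each symbol matched 1 Ensembl gene. All 8 were among the 10566 genes that passed the filter on low counts. Because the choice used these data, the comparisons of the 8 RNAs between groups are given as a description, without p-values.

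The RNA came from splenic CD4+ CD25- conventional T cells (Tconv CD4+), isolated on magnetic columns from mice with a C57BL/6J nuclear genome. The mitochondrial DNA was that of C57BL/6J (mtDNA B6, labelled WT) or of the NZB strain (mtDNA NZB). Cells were either resting or activated with beads that bind CD3 and CD28 for 72 h. The study's methods also name IL-2, in wording that leaves unclear whether Tconv CD4+ cells received it. The 4 groups (mtDNA B6 resting, mtDNA B6 activated, mtDNA NZB resting and mtDNA NZB activated) held 6 libraries each, 24 in all. The labels do not say whether the libraries of a group came from separate mice, so the errors and p-values given here measure the spread between these libraries, which may be technical. The labels give no age or sex for these libraries, and the study's methods say only that most experiments used young adult males.

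Neat1 is the scaffold of paraspeckles, nuclear bodies that hold RNA-binding proteins such as SFPQ and NONO. Malat1 is an abundant RNA of nuclear speckles, where splicing factors gather. The snoRNA hosts work differently: their introns are cut into snoRNAs that guide chemical modification and processing of ribosomal RNA, while the spliced exons are exported. Several hosts, Gas5 among them, are known to begin with a tract of pyrimidines (C or T), the terminal oligopyrimidine (TOP) motif that ribosomal protein mRNAs also carry. Such spliced RNAs are known to be removed by nonsense-mediated decay during translation, so that their level depends on decay as well as on transcription.

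The annotated starts of the 6 hosts are printed to show which of them hold a pyrimidine run. Each window spans 10 bases before and 20 bases from the start of the canonical GENCODE transcript, on the strand of the gene, in GRCm39, the build of the count files. Capitals mark the longest run of at least 5 C or T that touches positions -3 to 5, counted from 1 at the start with no position 0.

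Gas5, chr1:160861784-160861813, plus strand: gcgaTTCCCCagtgaggaggaagcccctgg

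Snhg5, chr9:88404922-88404951, minus strand: cgggctcgTTCTTTTacgacggagcctaag

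Snhg8, chr3:123302559-123302588, minus strand: actaaaggCCCTCTattctgtctcatagcg

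Snhg12, chr4:132035911-132035940, plus strand: gccgtgcgtcaggtggatgacgcagactca

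Snhg1, chr19:8700309-8700338, plus strand: aagcgaaaatccaaccgagctcagcccagg

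Snhg3, chr4:132080955-132080984, minus strand: tacttaaggtataaatatggctgcgtcggc

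Gas5, Snhg5 and Snhg8 held such a run, of 6, 7 and 6 bases. Those of Snhg5 and Snhg8 crossed the annotated start, whereas that of Gas5 ended just before it, outside the annotated transcript. Snhg12, Snhg1 and Snhg3 held none in this window. A run was also found at 29.7% of 54654 annotated protein-coding and long noncoding genes, and at 31.2% of 93 TOP mRNAs, so a run found this way does not set TOP mRNAs apart. The E-box CACGTG, which reads the same on both strands, was in none of the 8 promoters (250 bases before to 50 after the start) and in 6.5% of the promoters of all those genes. These matches describe letters in a window and say nothing about a bound factor.

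The libraries differed in depth and in RNA of other cell types. Totals ranged from 51409 to 6449395 molecules (UMI counts). Resting mtDNA NZB replicate 2 was the shallowest, 1 of its counts was worth 16.8 CPM (counts scaled to the same library total, with TMM factors), and its share of counts from the mitochondrial genome was 1.36% against 0.00505 to 0.0274% in the other 23 libraries. Il2ra, the CD25 gene that T cells induce on activation, lay at 0 to 5.68 CPM in the 12 resting libraries and at 41.8 to 179 CPM in the 12 activated ones. The summed level of 9 T cell markers had medians of 6026 and 5731 CPM in resting and activated mtDNA B6 cells and of 6096 and 6470 CPM in mtDNA NZB cells. Of these 9, 2 rose and 2 fell on activation in each haplotype (edgeR, adjusted p at most 0.05). Resting libraries also held RNA of other blood cells, and the summed markers of myeloid cells, granulocytes, erythroid cells and B cells were lower after activation in both haplotypes. The 8 myeloid markers summed to 1452 to 3933 CPM in resting and 189 to 274 CPM in activated mtDNA B6 cells, and to 966 to 4127 and 170 to 297 CPM in mtDNA NZB cells. The 8 granulocyte markers summed to medians of 2982 and 23.98 CPM in mtDNA B6 cells and 793 and 59.5 CPM in mtDNA NZB cells, the 8 erythroid markers to 1444 and 27.3 CPM and to 241 and 34.6 CPM, and the 8 B cell markers to 14230 and 6382 CPM and to 17780 and 5473 CPM. Of the 8 B cell markers only 1, Ighm, passed the same threshold as lower in each haplotype. Its mean went from 10070 to 3369 CPM in mtDNA B6 and from 11260 to 2597 CPM in mtDNA NZB cells. The B cell sums thus largely follow 1 gene, whereas all 8 myeloid and all 8 granulocyte markers fell. The 2 CD8 markers had higher sums after activation. Their medians were 68.3 and 275 CPM in mtDNA B6 and 51.6 and 164 CPM in mtDNA NZB. The 5 NK cell markers also had higher sums, with medians of 168 and 312 CPM and of 161 and 234 CPM. These NK markers did not all move the same way. Of the 3 tested, 2 rose and 1 fell in mtDNA B6 (edgeR, adjusted p at most 0.05). In mtDNA NZB 1 rose and 1 fell. Klrb1c fell from a mean of 8.78 to 2.11 CPM in mtDNA B6 and from 12.5 to 1.13 CPM in mtDNA NZB. Gzma rose from a mean of 15.2 to 137 CPM and from 16.1 to 57.8 CPM. In each group every marker of each list had counts. In bulk RNA, fewer cells of a type and less RNA per cell cannot be told apart, and the part of these cells in the results below was not tested.

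**Figure D1:**
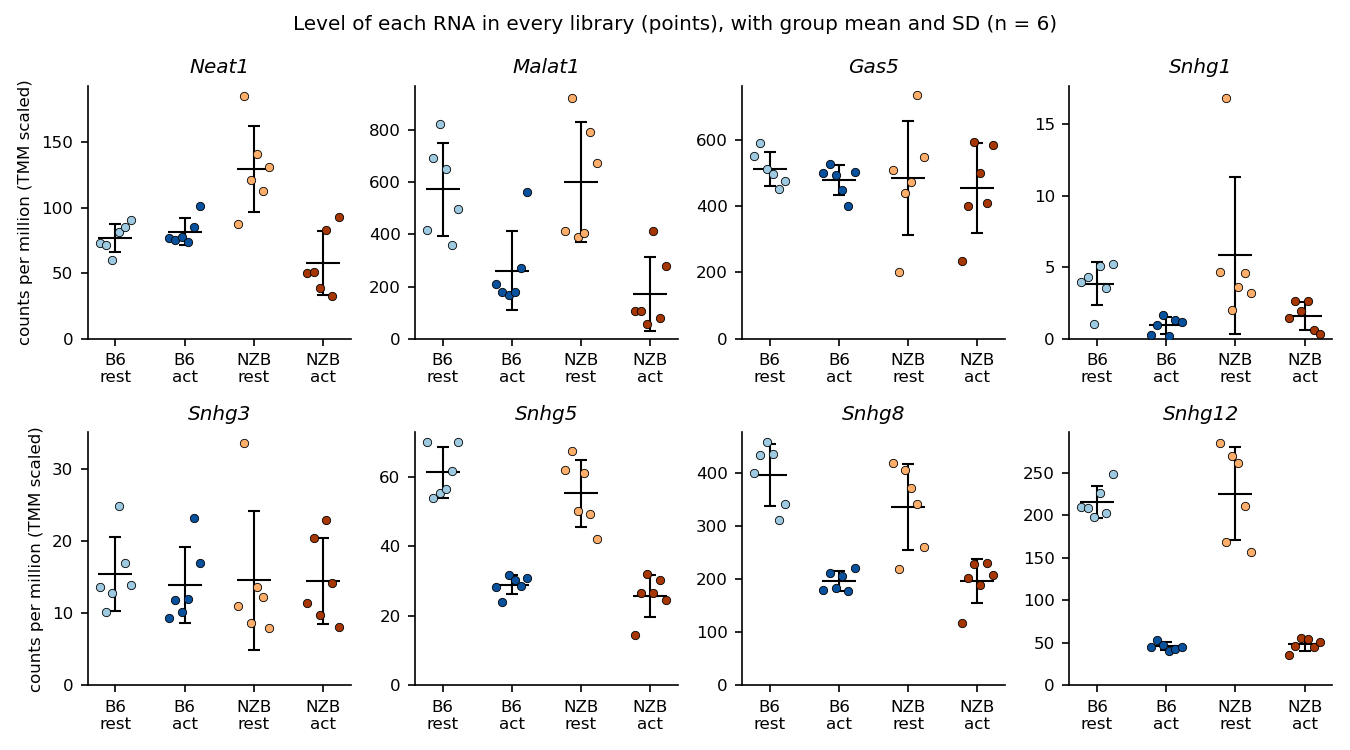
Level of each of the 8 RNAs in CPM (vertical axis, scaled by library size and TMM factors) in resting (rest) and activated (act) Tconv CD4+ cells with mtDNA B6 or mtDNA NZB. Each point is 1 library, offset by replicate number, and bars give the group mean and SD (n = 6). Snhg12, Snhg5 and Snhg8 sit lower in the activated groups, Gas5 and Snhg3 overlap in all groups, and Neat1 is highest by median in resting mtDNA NZB cells.

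Activation was the contrast in which most of the 8 RNAs differed. In mtDNA B6 cells 5 of the 8 RNAs passed the adjusted p threshold of 0.05 in the fit over all genes (edgeR), all of them lower after activation, where 46.9% of all genes tested passed (24.5% as lower and 22.4% as higher). In mtDNA NZB cells 6 of the 8 passed, all of them lower, where 53.5% of all genes passed (28.4% as lower and 25.2% as higher). The median log2 fold change over the 8 RNAs was -1.05 in mtDNA B6 and -1.03 in mtDNA NZB cells, beside -0.03 and -0.06 over all genes tested. Since the 8 were chosen with these contrasts known, the counts are not evidence about the group.

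**Figure D2:**
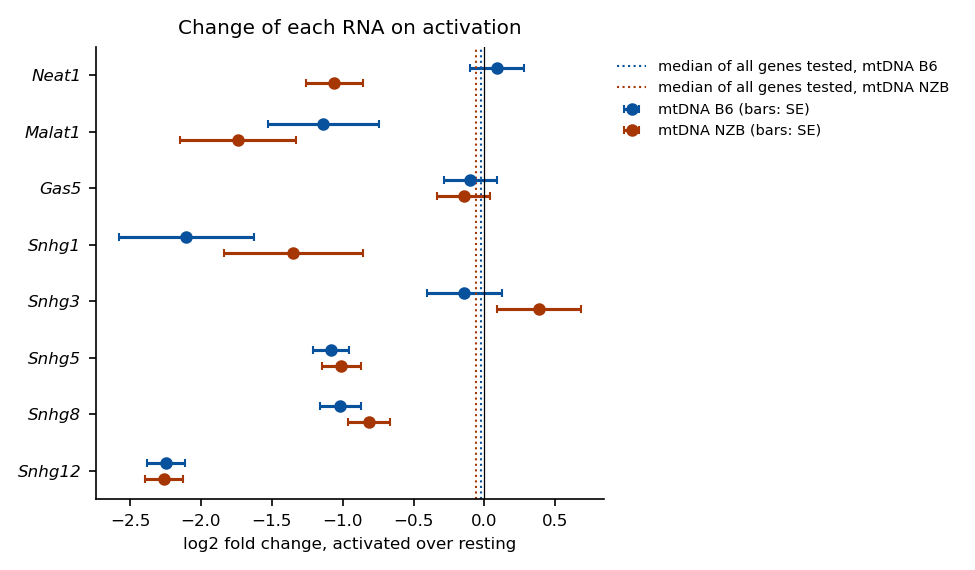
Log2 fold change of activated over resting cells (horizontal axis) for each RNA in mtDNA B6 (blue) and mtDNA NZB (brown) cells, with bars for the SE and dotted lines for the median of the 10566 genes tested. Snhg12 lies at -2.25 and -2.26, Snhg5 and Snhg8 lie near -1 in both haplotypes, Gas5 and Snhg3 lie near 0, and Neat1 lies at 0.09 in mtDNA B6 and -1.06 in mtDNA NZB.

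Snhg12 had the largest fitted difference between resting and activated cells among the 8 RNAs, in both haplotypes. It lies on chromosome 4 from 132035905 to 132038762 on the plus strand and spans 5 annotated snoRNA entries, among them Snora16a, Snora44, Snora61 and Snord99. In resting mtDNA B6 libraries it lay at 198 to 248 CPM with a median of 209, and in activated ones at 40.0 to 53.6 CPM with a median of 44.8. In resting mtDNA NZB libraries it lay at 157 to 285 CPM with a median of 237, and in activated ones at 35.8 to 55.6 CPM with a median of 48.4. Every activated library was thus below every resting library, in both haplotypes. The log2 fold change was -2.25 ± 0.13 (SE, n = 6 and 6) in mtDNA B6 and -2.26 ± 0.14 in mtDNA NZB cells, a level 4.74- and 4.79-fold lower. Between haplotypes the levels overlapped, with a log2 difference of 0.11 ± 0.13 at rest and 0.09 ± 0.13 in activated cells.

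Snhg5 and Snhg8 were lower after activation by a smaller factor than Snhg12. Snhg5, on chromosome 9 from 88377321 to 88405615 on the minus strand, carries Snord50a and Snord50b in its introns. Its level was 54.0 to 70.0 CPM (median 59.1) in resting and 24.04 to 31.6 CPM (median 29.4) in activated mtDNA B6 libraries. In mtDNA NZB libraries it was 41.9 to 67.4 CPM (median 55.5) at rest and 14.3 to 31.9 CPM (median 26.5) after activation. The resting and activated ranges did not meet in either haplotype, and the log2 fold changes were -1.08 ± 0.13 and -1.01 ± 0.14.

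Snhg8, on chromosome 3 from 123301192 to 123302578 on the minus strand, carries Snora24 in an intron. Its level was 312 to 460 CPM (median 417) in resting and 178 to 221 CPM (median 195) in activated mtDNA B6 libraries, with no overlap. In mtDNA NZB libraries it was 219 to 419 CPM (median 358) at rest and 117 to 230 CPM (median 205) after activation. These ranges met only through the shallow resting replicate 2, which held 13 counts of Snhg8 and marked the low end at rest, since without it the resting range was 260 to 419 CPM. The log2 fold changes were -1.02 ± 0.15 in mtDNA B6 and -0.82 ± 0.15 in mtDNA NZB cells. Across the 8 RNAs, resting and activated ranges were separate for 3 in mtDNA B6 (Snhg5, Snhg8 and Snhg12), beside 31.8% of all genes, and for 2 in mtDNA NZB (Snhg5 and Snhg12), beside 18.9%.

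Snhg1 was lower after activation too, but on few molecules. It lies on chromosome 19 from 8700319 to 8703812 on the plus strand, with 8 snoRNAs in its introns, and summed to 174 counts over all 24 libraries, 1 to 20 in each. In mtDNA B6 cells it lay at 1.01 to 5.24 CPM (median 4.13) at rest and 0.211 to 1.64 CPM (median 1.05) after activation. In mtDNA NZB cells it lay at 2.00 to 16.8 CPM (median 4.09) at rest and 0.292 to 2.60 CPM (median 1.69) after activation, and the value of 16.8 CPM is 1 count in the shallow library. The ranges overlapped in both haplotypes. The log2 fold changes were -2.10 ± 0.48 and -1.35 ± 0.49, and the mtDNA NZB value no longer passed the threshold in 8 of 36 other ways of fitting it. The gene overlaps Slc3a2 on the other strand, outside the last 1000 bases of the Snhg1 transcript, the region to which reads were assigned, and whether strand was used in counting is not given in the sources used here.

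Gas5 and Snhg3 showed the smallest differences on activation among the hosts. Gas5, a host that was first isolated for its rise in growth-arrested cells, lies on chromosome 1 from 160861793 to 160866118 on the plus strand and carries 10 annotated snoRNA entries in its introns. Its level was 451 to 590 CPM (median 505) in resting and 402 to 527 CPM (median 498) in activated mtDNA B6 libraries. In mtDNA NZB libraries it was 202 to 737 CPM (median 492) at rest and 233 to 595 CPM (median 456) after activation, with both low ends in the shallowest libraries of their groups. The log2 fold changes were -0.10 ± 0.19 and -0.15 ± 0.19, and neither passed the threshold.

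Snhg3 lay at 10.2 to 24.9 CPM (median 13.7) in resting and 9.37 to 23.2 CPM (median 11.9) in activated mtDNA B6 libraries. In mtDNA NZB libraries it lay at 7.99 to 33.7 CPM (median 11.6) at rest and 8.02 to 23.0 CPM (median 12.8) after activation. The log2 fold changes of -0.14 ± 0.27 and 0.38 ± 0.30 did not pass the threshold. Its gene, on chromosome 4 from 132075325 to 132080997 on the minus strand, overlaps Rcc1, a protein-coding gene on the same strand. How reads in the shared stretch were counted is not given in the sources used here. Over the 4 group means, Gas5 and Snhg3 were the most alike of any pair among the 8 RNAs (root mean square difference 0.06 on the log2 scale, each RNA centred on its own mean), followed by Snhg5 and Snhg8 with 0.12.

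Hardly any of the hosted snoRNAs were themselves counted. The 6 hosts span 28 annotated snoRNA entries on their own strand, all of them in the count table, and 26 had no count in any library. The exception was Snora73b, an H/ACA-box snoRNA in an intron of Snhg3 that is known to act in ribosomal RNA processing, with 3040 counts against 1031 for Snhg3 itself (1 entry within Gas5 had 7 counts). Snora73b and the overlapping Rcc1, which encodes a nuclear exchange factor for the GTPase Ran, were singled out after their values were seen. The last 30 bases of the snoRNA, at chr4:132079633-132079662 on the minus strand in GRCm39, are shown with the ACA box in capitals, 3 bases from the end as is usual for this class.

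Snora73b, 3′ end: ctgaggagacaaaccatgcaggaaACAaaa

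Snora73b rose on activation in both haplotypes. It lay at 10.4 to 29.3 CPM (median 18.4) in resting and 43.3 to 110 CPM (median 58.9) in activated mtDNA B6 libraries, with no overlap. In mtDNA NZB libraries it lay at 7.64 to 26.0 CPM (median 14.0) at rest and 21.0 to 92.8 CPM (median 68.0) after activation, and the ranges met only through replicate 6 of each group. Its log2 fold changes were 1.79 ± 0.33 (adjusted p = 7.29e-05, edgeR) and 2.09 ± 0.36 (adjusted p = 3.27e-05). Rcc1 rose as well, by 1.17 ± 0.17 (adjusted p = 3.99e-06) in mtDNA B6 and 1.81 ± 0.19 (adjusted p = 1.70e-08) in mtDNA NZB cells on the log2 scale. Because all 3 genes share a strand and a locus, and Snora73a is a close relative in the same host, the origin of the Snora73b counts cannot be told apart from these files.

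**Figure D3:**
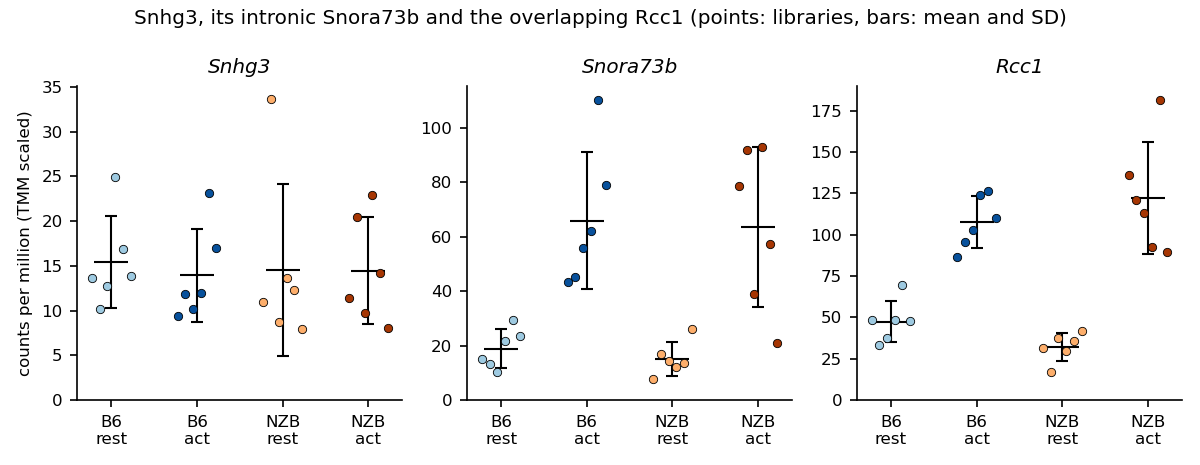
Level in CPM (vertical axis) of Snhg3, of Snora73b in its intron and of Rcc1, which overlaps Snhg3, in resting (rest) and activated (act) cells with mtDNA B6 or mtDNA NZB. Points are libraries offset by replicate number, and bars are the mean and SD (n = 6). Snhg3 overlaps in all groups, with medians of 11.6 to 13.7, while Snora73b has medians of 18.4 and 14.0 at rest and 58.9 and 68.0 after activation.

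Among the nuclear RNAs, Malat1 was lower after activation in both haplotypes with a wide spread between libraries. It lies on chromosome 19 from 5845717 to 5853602 on the minus strand and is a single exon in its canonical transcript. Near its 3′ end the genome encodes a run of 12 A, which is shown because these libraries were made from poly(A) RNA. The run, in capitals, ends 299 bases before the end of the canonical transcript, and its part in the counts was not tested.

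Malat1, chr19:5846007-5846036, minus strand: cctagctttAAAAAAAAAAAAgcaaaagac

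Malat1 lay at 360 to 823 CPM (median 575) in resting and 167 to 562 CPM (median 195) in activated mtDNA B6 libraries. In mtDNA NZB libraries it lay at 390 to 926 CPM (median 546) at rest and 56.9 to 413 CPM (median 105) after activation. Resting and activated ranges overlapped in both haplotypes, in mtDNA B6 through activated replicate 6 alone (562 CPM, where the next highest activated library had 271) and in mtDNA NZB through activated replicate 4 (413 CPM, where the next highest had 279). The log2 fold changes were -1.14 ± 0.39 and -1.74 ± 0.41. Without activated replicate 6 the mtDNA B6 value was -1.51, and without activated replicate 4 the mtDNA NZB value was -2.20. The difference between haplotypes in activated cells was -0.59 ± 0.39 and ran from -1.05 to -0.21 when single libraries were left out, and it did not pass the threshold.

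Neat1 had the largest difference between haplotypes among the 8 RNAs at rest and in the response to activation, by fitted value. It lies on chromosome 19 from 5874736 to 5897132 on the minus strand, next to Malat1, and its canonical transcript is also a single exon. The gene has 24 annotated transcripts, which a count per gene does not tell apart. In mtDNA B6 cells it lay at 59.7 to 90.2 CPM (median 76.9) at rest and 74.0 to 101 CPM (median 77.2) after activation. In mtDNA NZB cells it lay at 87.3 to 185 CPM (median 126) at rest and 32.3 to 92.6 CPM (median 50.3) after activation. The resting mtDNA NZB libraries were thus the highest group and the activated mtDNA NZB libraries the lowest by median, with both mtDNA B6 groups in between and overlapping each other. The highest value, 185 CPM, rested on 11 counts in the shallow replicate 2, and the resting mtDNA NZB mean was 119 ± 20.5 CPM (SD, n = 5) without it.

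The log2 fold change of Neat1 on activation was 0.09 ± 0.19 in mtDNA B6 and -1.06 ± 0.20 in mtDNA NZB cells, 2.08-fold lower in the latter, with ranges that met at resting replicate 1 and activated replicate 6. At rest Neat1 was 0.67 ± 0.20 higher in mtDNA NZB than in mtDNA B6 cells, and after activation the difference was -0.48 ± 0.19, neither past the threshold. The difference between the responses of the haplotypes was -1.15 ± 0.28. These 3 comparisons reuse the groups of the activation contrasts and are not separate evidence. None of the 8 RNAs passed the threshold in them, where 2.76% of all genes passed at rest (1.9% as higher and 0.861% as lower in mtDNA NZB) and 0% in activated cells and for the difference between responses (edgeR called 0 genes in each of these, with 327 and 1507 at an unadjusted p under 0.05, and DESeq2 called 0 and 1).

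Whether Neat1 passed depended on which libraries were fitted. Over 21 libraries (without resting mtDNA NZB replicates 2 and 6 and activated replicate 6) its difference between responses was -1.28 ± 0.26 and passed, with 1.04% of 10826 genes passing. Of the libraries left out, activated replicate 6 held the most Neat1 of its group (92.6 CPM). The shallow resting replicate 2 held the most of its own group (185 CPM). Resting replicate 6 had the highest granulocyte marker sum of its group (20220 CPM). With the label number as a block over the same 21 libraries it did not pass. The resting difference of Neat1 passed when activated mtDNA NZB replicate 5, activated replicate 6 or resting replicate 1 was left out, where it was 0.67, 0.67 and 0.76.

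The libraries also fell into 3 sets of 8 by the ratio of the totals in the 2 count tables (1.88 to 1.96, 2.11 to 2.24 and 2.68 to 2.796 reads per UMI), which were spread unevenly over the groups. From the lowest ratio up, the sets held 0, 4 and 2 resting and 5, 1 and 0 activated mtDNA B6 libraries. For mtDNA NZB they held 1, 1 and 4 resting and 2, 2 and 2 activated libraries. In mtDNA B6, activation can thus be compared within a set only in that with 2.11 to 2.24, on a single activated library. In the set with 2.68 to 2.796, Neat1 lay at 85.0 and 90.2 CPM in the 2 resting mtDNA B6 libraries, at 113 to 185 CPM in the 4 resting mtDNA NZB libraries and at 38.4 and 50.1 CPM in the 2 activated mtDNA NZB libraries. In the set with 2.11 to 2.24 it lay at 59.7 to 81.0 CPM in the 4 resting mtDNA B6 libraries, at 87.3 CPM in the single resting mtDNA NZB library and at 50.6 and 82.8 CPM in the 2 activated mtDNA NZB libraries. The single activated mtDNA B6 library of that set had 85.0 CPM. In the set with 1.88 to 1.96 the single resting mtDNA NZB library had 121 CPM, and the 2 activated mtDNA NZB libraries 32.3 and 92.6 CPM. The 5 activated mtDNA B6 libraries of that set had 74.0 to 101 CPM, which overlaps the activated mtDNA NZB values. Resting mtDNA NZB libraries were above activated mtDNA NZB libraries within each set. With the set as a term, the log2 fold changes of Neat1 were 0.04 ± 0.25 in mtDNA B6 and -1.04 ± 0.22 in mtDNA NZB cells, while 3 of the 8 RNAs passed in mtDNA B6 instead of 5, since Malat1 (-1.01 ± 0.53) and Snhg1 (-1.04 ± 0.55) no longer did.

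The activated libraries with the most Malat1 also held the most Neat1. In mtDNA B6, activated replicate 6 was highest for both, at 562 CPM of Malat1 and 101 CPM of Neat1, and replicate 5 was next, at 271 and 85.0 CPM. In mtDNA NZB, replicates 4 and 6 had 413 and 279 CPM of Malat1 and 82.8 and 92.6 CPM of Neat1, against 56.9 to 105 and 32.3 to 50.6 CPM in the other 4. Il2ra lay at 50.5 CPM in mtDNA B6 replicate 6 and at 59.0 and 54.1 CPM in mtDNA NZB replicates 4 and 6, where the activated libraries ranged from 41.8 to 118 CPM in mtDNA B6 and from 54.1 to 179 CPM in mtDNA NZB. Other libraries did not follow this order, since mtDNA B6 replicate 5 had 85.8 CPM of Il2ra and replicate 1, the lowest at 41.8 CPM, was not high in Neat1 or Malat1. The 2 CD8 markers summed highest in replicate 6 of both activated groups, at 403 CPM in mtDNA B6 and 531 CPM in mtDNA NZB. The part of either in the result was not tested.

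**Figure D4:**
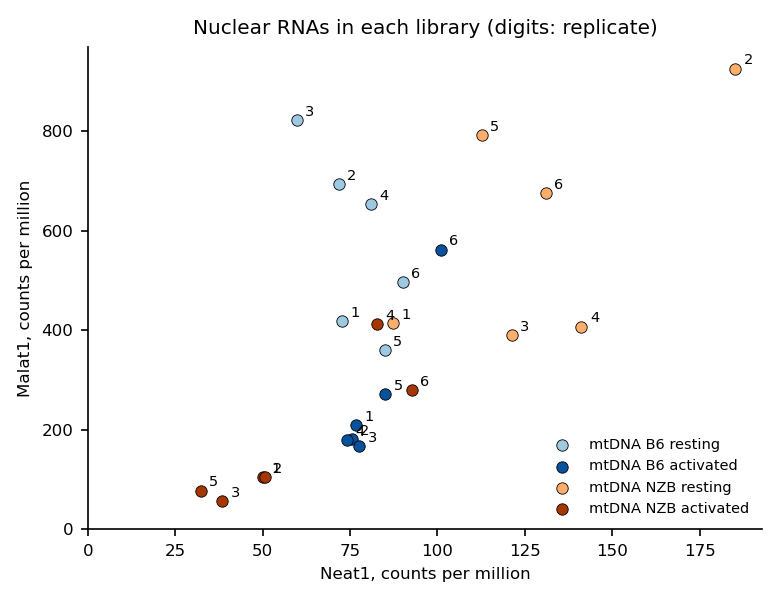
Level in CPM of Neat1 (horizontal axis) and Malat1 (vertical axis) in each of the 24 libraries, coloured by group, with the replicate number beside each point. Activated mtDNA NZB libraries spread from 32.3 and 77.3 CPM in replicate 5 to 92.6 and 279 CPM in replicate 6, and resting mtDNA NZB libraries lie to the right of all but a few others.

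The genes that work with these RNAs were examined by fixed lists, of which the counts and medians are given. They are to be read against all genes tested, of which mtDNA B6 cells showed 22.4% as higher and 24.5% as lower, and mtDNA NZB cells 25.2% and 28.4%, with medians of -0.03 and -0.06. Of 16 other snoRNA-host long noncoding RNAs, 10 were tested. In mtDNA B6 cells 4 of them fell on activation and none rose, and in mtDNA NZB cells 5 fell and 2 rose, with median log2 fold changes of -0.37 and -0.39. In all 4 and 7 of 10 passed, beside 46.9% and 53.5% of all genes. Among those that passed in mtDNA NZB only, and named after their values were seen, were Snhg9 (-0.79 ± 0.21, adjusted p = 0.00276) and Snhg20 (0.58 ± 0.19, adjusted p = 0.0109). For neither did the difference between the responses of the haplotypes pass the threshold, which no gene tested passed. Snhg17 fell from a mean of 51.6 to 17.4 CPM in mtDNA B6 (log2 fold change -1.58 ± 0.16, adjusted p = 1.25e-08) and from 46.2 to 17.7 CPM in mtDNA NZB cells (-1.56 ± 0.16, adjusted p = 2.71e-08). Snhg15 fell as well (log2 fold changes -1.23 ± 0.14 and -1.41 ± 0.14), as did Snhg16 (-1.17 ± 0.14 and -0.92 ± 0.15). Of 5 other long noncoding RNAs tested, 2 fell and 1 rose in each haplotype. Lncpint, which is known to be induced by p53, fell from 13.2 to 1.06 CPM in mtDNA B6 (-3.60 ± 0.35, adjusted p = 9.81e-09) and from 12.8 to 0.844 CPM in mtDNA NZB cells, and Pvt1, the neighbour of Myc, fell too (-1.38 ± 0.22 and -1.30 ± 0.24). Oip5os1, also called Cyrano, rose by 0.52 ± 0.10 and 0.79 ± 0.10.

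Of 16 tested genes for proteins that build snoRNA particles, mtDNA B6 cells showed 6 rises and no fall, and mtDNA NZB cells 7 rises and 1 fall, with median log2 fold changes of 0.25 and 0.48. The share that passed in either direction was no larger than the 46.9% and 53.5% of all genes. The fall was in Snu13, a protein of box C/D particles (-0.41 ± 0.16, adjusted p = 0.0314), named after its value was seen. Nhp2, a core protein of H/ACA snoRNA particles, rose by 0.47 ± 0.14 (adjusted p = 0.00633) and 1.02 ± 0.14 (adjusted p = 1.79e-06). The assembly factors Pih1d1 and Ruvbl2 rose by 0.60 ± 0.14 and 0.57 ± 0.14 in mtDNA B6 and by 1.08 ± 0.14 and 1.07 ± 0.15 in mtDNA NZB cells.

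TOP mRNAs encode ribosomal proteins and translation factors. Of 93 tested, 39 fell and none rose in mtDNA B6 cells, and 36 fell and 1 rose in mtDNA NZB cells, with medians of -0.36 and -0.32, beside 24.5% and 28.4% of all genes that fell. The rise was in Rpl13a (0.44 ± 0.12, adjusted p = 0.00383), named after its value was seen. With the set by reads per UMI as a term, 21 fell in mtDNA B6, and with only the groups compared in the fit 62 and 20 fell. Hnrnpa1 (-1.16 ± 0.14 and -1.28 ± 0.14), Tpt1 (-0.96 ± 0.14 and -0.93 ± 0.14) and Eif3e, a subunit of translation initiation factor 3 (-1.15 ± 0.32 and -1.83 ± 0.35), had the largest falls. Larp1, the protein that binds TOP mRNAs, rose by 0.42 ± 0.16 and 0.75 ± 0.17, and Cnbp fell (-0.36 ± 0.11 and -0.68 ± 0.12). Of 13 TOP regulators tested, 1 went up and 2 went down past the threshold in mtDNA B6, and 3 and 1 in mtDNA NZB cells. The others of these, named after their values were seen, were Rptor (-0.42 ± 0.13 in mtDNA B6), Eif4g1 (0.39 ± 0.11) and Tia1 (0.47 ± 0.19, both in mtDNA NZB).

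Of 16 genes of nonsense-mediated decay, 8 fell in each haplotype, while 2 rose in mtDNA B6 and 1 in mtDNA NZB cells (medians -0.29 and -0.26), beside 24.5% and 28.4% of all genes that fell. In mtDNA B6 this count rests on the fit: with library totals in place of TMM factors 4 rose and 3 fell (4 and 6 in mtDNA NZB), and 4 fell with no filter, with the set by reads per UMI as a term or with the replicate block by label number. Smg1, the kinase that acts on the decay factor UPF1, fell in both (-0.80 ± 0.23 and -1.17 ± 0.25), as did Smg6, the endonuclease of the pathway (-0.54 ± 0.12 and -0.62 ± 0.13). Magohb, a subunit of the exon junction complex, rose by 0.82 ± 0.17 and 1.47 ± 0.19.

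Of 16 tested genes for paraspeckle proteins, the partners of Neat1, mtDNA B6 cells showed 7 rises and 2 falls, and mtDNA NZB cells 7 rises and 3 falls (medians 0.40 and 0.32). In either direction 9 and 10 of 16 passed, beside 46.9% and 53.5% of all genes. Sfpq rose by 0.62 ± 0.14 and 0.65 ± 0.14, Rbm14 by 0.60 ± 0.21 and 0.91 ± 0.22, and Nudt21 by 0.56 ± 0.16 and 0.69 ± 0.17. Taf15 (-1.57 ± 0.30 and -1.21 ± 0.32) and Zc3h6 (-0.70 ± 0.29 and -0.99 ± 0.31) fell. In mtDNA B6 the call of Zc3h6 was marginal (adjusted p = 0.046, edgeR) and was lost in 24 of 37 other ways of fitting it. The count of 2 falls in that haplotype therefore rests on the fit. For none of the 16 did the difference between the responses of the haplotypes pass the threshold. None of the 10566 genes tested passed in that comparison, so this is not particular to the 16.

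Of 20 genes of nuclear speckles and splicing, the surroundings of Malat1, mtDNA B6 cells showed 6 falls and 2 rises, and mtDNA NZB cells 10 falls and 1 rise (medians -0.09 and -0.34). In either direction 8 and 11 of 20 passed, near the 46.9% and 53.5% of all genes. Clk1, a kinase of SR splicing factors, fell from a mean of 134 to 39.0 CPM in mtDNA B6 (-1.77 ± 0.23, adjusted p = 8.43e-07) and from 176 to 34.4 CPM in mtDNA NZB cells (-2.45 ± 0.24, adjusted p = 1.11e-08). Tra2b (-1.83 ± 0.19 and -2.25 ± 0.20) and Srsf5 (-1.52 ± 0.12 and -1.59 ± 0.12) fell, whereas Srsf1 rose by 0.77 ± 0.19 and 0.90 ± 0.20.

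**Figure D5:**
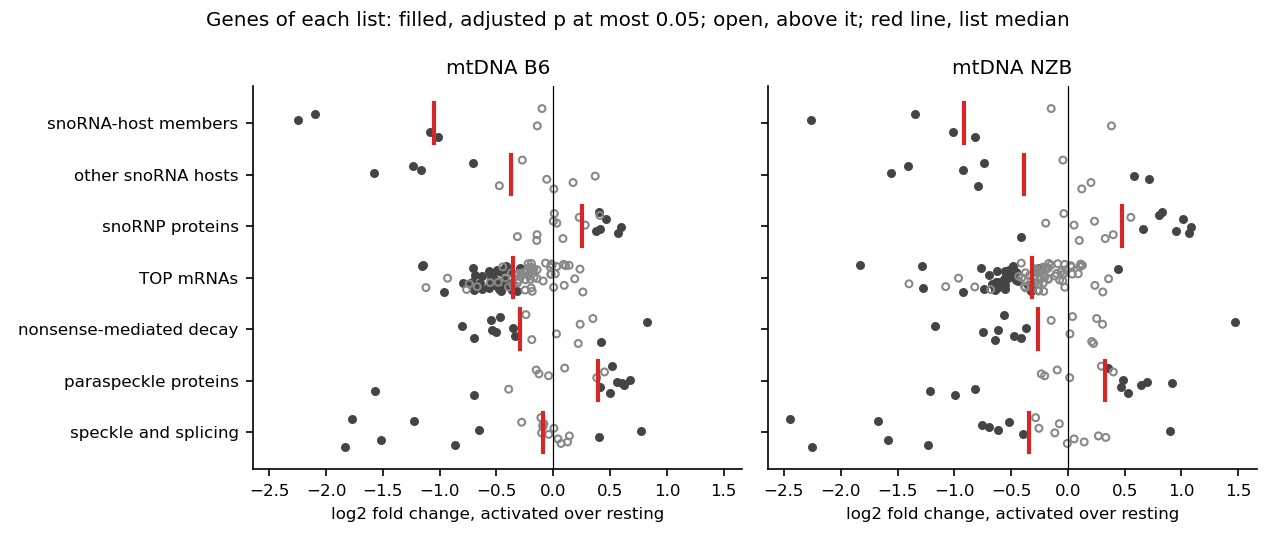
Log2 fold change of activated over resting cells (horizontal axis) for each tested gene of the lists in mtDNA B6 (left) and mtDNA NZB (right) cells. Filled points had an adjusted p of at most 0.05 (edgeR), open points did not, and red lines are list medians, which run from -1.05 for the 6 snoRNA-host RNAs chosen here to 0.40 for paraspeckle proteins in mtDNA B6, and from -0.91 for the same 6 hosts to 0.48 for snoRNA particle proteins in mtDNA NZB.

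The genes most like each RNA were found from the 4 group means of log2 CPM, each gene centred on its own mean, among 7543 genes with at least 10 CPM on average (7544 for Snhg1). Among the nearest to Neat1 were Ebf1, a transcription factor of B cells, with a root mean square difference of 0.09, and Ipmk (0.10). The nearest to Malat1 were Cybb, a subunit of the phagocyte oxidase (0.05), Fkbp11 (0.09) and Slc26a11 (0.10). Snhg12 was nearest to Nfkbiz (0.07), Otud1 (0.07) and the long noncoding RNA Chaserr (0.08). Snhg5 was nearest to Rab32 (0.03), the ribosomal protein gene Rps27 (0.03) and Chst15 (0.03), and Snhg8 to Kyat1 (0.02), Tk2 (0.04) and Pgap6 (0.04). Snhg1 was nearest to Cirbp (0.10), Dzip1 (0.11) and Cdh24 (0.12). The nearest to the hosts with the smallest differences were Taok2, Snrnp70 and Taf1b (0.02 each) for Gas5 and Serf2 (0.01), Nsg2 (0.02) and Fam114a2 (0.02) for Snhg3. These distances rest on 4 group means and describe likeness of pattern only.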

How the data were processed

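Poly(A) RNA was made into bulk MARS-seq libraries, in which 3′ ends are read and molecules carry a barcode (UMI) that lets copies be counted once. The authors trimmed reads with cutadapt, aligned them to the last 1000 bases of genes of GRCm39 with STAR, counted them with HTSeq (versions are not given in the sources used here) and corrected UMI counts for saturation. The deposited values are whole-number counts per gene in 2 tables: the UMI-corrected table, used for all results, and a second, larger count table with no stated description. A single column (1) of the latter matched no sample and was not used.

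Genes were named from GENCODE vM39 (GRCm39). Counts were filtered with filterByExpr (10566 genes left), scaled by TMM factors and tested with edgeR 4.0.16 (quasi-likelihood, R 4.3.3) over all 24 libraries in 1 fit with 4 groups. Adjusted p is by Benjamini-Hochberg over all genes tested, with a threshold of 0.05 and no fold cut-off. SE is the log2 fold change divided by the square root of F. CPM was computed on the TMM-scaled library total. The scripts were tested on simulated data for the mtDNA B6 activation contrast: of 10566 genes, 56 of 100 changed by 1 and 99 of 100 changed by 2 on the log2 scale were recovered, with 3 false calls. The simulation gave all genes the same spread between libraries and changed far fewer genes than passed in the data. These figures therefore check the scripts and do not measure how the fit performs on these libraries. No 2 replicates agreed within sampling noise (the lowest chi-square over its degrees of freedom was 2.77), and all libraries were kept as separate samples. Intervals of counting error are not given, since the SE over libraries includes it.

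The 8 RNAs and all lists were chosen with earlier results of these data known. Named genes outside the 8 were, per list, up to 3 rises and up to 3 falls of the largest size among genes called in the same direction in both haplotypes with a group mean of at least 10 CPM, plus for each of the 8 the 3 genes nearest in pattern and Il2ra. Some genes that this rule names are not reported here. Alternatives were median-of-ratios size factors, library totals, DESeq2 1.42.0 with the study's settings, no filter, a stricter filter (minimum count 30), the second table, a fold cut-off of 2, only the groups compared, each library left out, 21 libraries, the set by reads per UMI as a term and replicate blocks. The fits over 21 libraries with a block and without the 2 shallowest libraries were added after seeing the data. The fit over 21 libraries had no mtDNA NZB replicate 6, resting or activated, and no resting replicate 2 of that haplotype.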

Additional observations from a re-analysis of the deposited data

Results flagged for a closer look

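In groups of 6 libraries, a highest or lowest value was marked when its gap to the next library, as a share of the range of the group, was above Dixon's critical value. Of 32 combinations of RNA and group, 4 were marked, where chance marks about 1 in 20 groups. Malat1 in activated mtDNA B6 replicate 6 lay at 562 CPM, above the others of its group. Snhg1 (16.8 CPM) and Snhg3 (33.7 CPM) in resting mtDNA NZB replicate 2 were the highest of their groups and rest on 1 and 2 counts in the shallowest library. Snhg8 in activated mtDNA NZB replicate 1, the shallower of the activated libraries with 641467 counts in all, lay at 117 CPM, below the others.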

How the results depend on the processing

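The number of the 8 RNAs that passed on activation was 5 in mtDNA B6 and 6 in mtDNA NZB cells. It was 3 in mtDNA B6 with the set by reads per UMI as a term, 5 and 6 without the 2 shallowest libraries, and 5 to 5 and 5 to 6 when each library was left out. At rest it was 0, and 0 to 1 when each library was left out. For the difference between responses it was 0, and 1 (Neat1) over 21 libraries. The calls of Snhg5 and Snhg12 were kept in all alternatives run, in both haplotypes, as was that of Snhg8 apart from the fold cut-off in mtDNA NZB, and no call changed sign. Snhg1 did not pass the stricter filter. In the lists of other snoRNA hosts, snoRNA particle, paraspeckle, speckle and decay genes and TOP mRNAs together, 76 and 82 genes passed in mtDNA B6 and mtDNA NZB, 10 and 16 with the fold cut-off of 2, and 63 to 83 and 73 to 99 when each library was left out. The 29 genes outside the 8 that were refitted (those the rule picked from the lists, Snora73b and Rcc1) kept their direction in all 2202 refitted values, with 73 no longer past the threshold, 28 of them under the fold cut-off. Zc3h6 in mtDNA B6 made up 24 of the 73. Library totals in place of TMM factors raised the median of all genes by 0.13 and 0.12 on the log2 scale and turned the split of calls from 2368 higher and 2590 lower to 3032 and 2003 in mtDNA B6. Over all genes, 4958 and 5656 passed on activation, 1868 and 2474 with the fold cut-off. At rest 292 passed, but 188 with library totals, 180 with DESeq2, 43 with the second table, 0 with only the groups compared, 668 over 21 libraries, 1 with the set term, 107 with the fold cut-off, and 0 to 587 when each library was left out. For the difference between responses 0 passed, but 113 over 21 libraries and 8 there with the block. Resting and activated libraries with the same label number had correlations of their deviations from -0.08 to 0.25 in mtDNA B6 and from -0.16 to 0.0028 in mtDNA NZB. These do not show whether a number marks 1 source of cells, which the labels do not state, although isolated cells were split into resting and activated portions. With the replicate block by label number, 5 and 5 of the 8 RNAs passed, 59 and 69 listed genes, and 0 RNAs for the difference between responses, the RNA lost in mtDNA NZB being Snhg1 (-1.17). With the replicate block by title number the RNAs were 5 and 6, the listed genes 71 and 81, 0 RNAs passed in each of the other comparisons, and 72 genes passed at rest. Differences under 2-fold are limited by 6 libraries a group, and those of Snhg1 by its few counts.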
